A study of Homo sapiens with 28 samples.

Results

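CD80, CD86, CD83, CD274, ICOSLG and SLAMF1 are 6 of the 56809 genes in the deposited tables and were taken by gene symbol, whatever their values. They were read in 28 RNA-sequencing libraries, in 12 groups of genotype and treatment, all from U937, a cell line of human monocytic origin. The knockouts were c-Rel-/- (called cREL here), p50-/-, p52-/- and RELB-/- with 2 clones each and p65-/- with 3 clones, and they were set against CTR, 3 clones that had received guide RNAs with no specific target. Each of the 14 clones was sequenced once with lipopolysaccharide (LPS, 500 ng/ml) and once untreated, at the 6 h time point. The 5 targeted proteins pair up as dimers of the transcription factor NF-kB (their genes are NFKB1 for p50, NFKB2 for p52, RELA for p65, REL for cREL and RELB), and LPS from Gram-negative bacteria activates NF-kB through the receptor TLR4. The labels state neither the guide sequences nor the edited alleles, and every value of a knockout rests on 2 or 3 clones.

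An antigen-presenting cell tells a T cell how to respond to antigen through ligands on its surface. CD80 and CD86 bind CD28, which costimulates, and CTLA4, which restrains. ICOSLG, of the same B7 family, binds ICOS, whereas CD274, better known as PD-L1, binds the inhibitory receptor PD-1. CD83 is an immunoglobulin-family membrane protein known as a marker of mature dendritic cells. SLAMF1 (CD150) binds a second SLAMF1 molecule on a neighbouring cell, and in human macrophages it has been described as a partner of the TLR4 adaptor TRAM. NF-kB is a known regulator of several of these genes in myeloid cells, and CD274 is also a classic target of interferon signalling.

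Known binding motifs were looked for in RefSeq promoter windows (GRCh38.p14), which are 300 bases long and span an annotated start, on both strands. The 6 genes had 8 windows among 35116. The kB consensus, the DNA motif of NF-kB dimers, was found in 2 of the 8 windows and in 5.91% of all windows. The matches lay in the second window of CD83, in a stretch annotated as untranslated exon, and in the second window of CD86. The CD274 window held the pattern TTCNNNGAA of a gamma-activated site once and the interferon-response core (GAAA, any 2 bases, GAAA) at overlapping places on the minus strand. These patterns occur in 7.66% and 3.57% of all windows. The 3 stretches are printed 5′ to 3′ on the plus strand because they hold all the matches found, with matching bases in capitals (overlapping matches are merged).
CD83, chr6:14117687-14117716: ctgcccgccGGGGAATCCCCCgggctggcg
CD86, chr3:122077693-122077722: gctccctttGGGGGTTTCCCagggctttac
CD274, chr9:5450319-5450440: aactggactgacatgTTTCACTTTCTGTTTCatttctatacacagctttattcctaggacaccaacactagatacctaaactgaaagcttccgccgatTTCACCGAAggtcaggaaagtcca
The windows of SLAMF1, CD80 and ICOSLG held none of the 3 patterns, which says only that these letters are not in those 300 bases. For SLAMF1 the window (chr1:160646995-160647294) lay wholly in annotated untranslated exon, with 300 of its 300 bases there. The gene coordinates given below place the SLAMF1 start, on the minus strand, at 160647295, just outside this window. Sequence upstream of that start was therefore not searched. Binding was not measured here, and a match is a description of the sequence.

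The genes lie on 5 chromosomes in GRCh38 (GENCODE 29 coordinates). SLAMF1 spans chr1:160608100-160647295 on the minus strand, CD80 chr3:119524293-119559602 on the minus strand and CD86 chr3:122055366-122121139 on the plus strand. CD83 spans chr6:14117256-14136918 on the plus strand, CD274 chr9:5450503-5470566 on the plus strand and ICOSLG chr21:44217014-44240966 on the minus strand.

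Libraries summed to between 12643438 and 22122428 estimated counts. The label of each knockout was checked on its own transcript, although an edit that breaks the protein need not lower the RNA. RELA read 3.67 to 8.36 CPM (counts scaled to library size with TMM factors) in p65 replicates 2 and 3, but 53.6 CPM untreated and 58.3 CPM with LPS in the libraries labelled p65 replicate 1, inside the 43.9 to 65.7 CPM of the 22 libraries of other genotypes. REL read 10.5 CPM untreated and 8.18 CPM with LPS in cREL replicate 2, below the 18.5 to 46.1 CPM of the other genotypes. In cREL replicate 1 it read 26.0 CPM untreated and 23.9 CPM with LPS, inside that range. NFKB1 read 5.22 to 10.9 CPM in p50 libraries and 9.28 to 33.2 CPM in the others, while NFKB2 in p52 and RELB in RELB libraries lay inside the range of the other genotypes. Batch, as the labels name it, is A, B or C, and batch A holds no CTR clone. The p50, p52, cREL and RELB clones were all in batches A and B, where CTR replicate 2 was the only CTR clone. Without it, the batch term links these knockouts to CTR only through the p65 clones, among them p65 replicate 1. Folds fitted without CTR replicate 2 therefore cannot tell the weight of that clone from batch. Of the genes listed as monocytic markers, some were high, with means of 2205 TPM (abundance scaled to transcript length and library size) for ELANE, 1047 TPM for LYZ and 124.1 TPM for CD33. CD14 averaged 1.17 TPM, and MPO was at 0 in 18 libraries. Of the defining lymphocyte and dendritic cell genes, CD3D, MS4A1 and CD1C were at 0 in all 28 libraries, though NKG7 averaged 339.8 TPM, CD4 113.3 TPM, BATF3 13.7 TPM and PAX5 2.67 TPM.

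Levels can be ranked between the genes only per transcript length, in TPM. CD83 was the most abundant by far, at a mean of 42.2 TPM over the 28 libraries. ICOSLG averaged 2.76 TPM, SLAMF1 1.76 TPM, CD274 0.921 TPM and CD86 0.709 TPM. CD80 was almost absent, at 0.111 TPM, with 16 of 28 libraries at 0. For comparing libraries, CPM was used in place of TPM, because the effective length that the authors assigned to a gene varied from library to library by up to 1.03-fold for CD83, 2.21-fold for ICOSLG, 8.47-fold for SLAMF1 and 12.1-fold for CD274. The filter on low counts left 18624 genes, among them CD83, ICOSLG, SLAMF1, CD274 and CD86, while CD80 did not pass it. In bulk RNA, fewer expressing cells and less RNA per cell cannot be told apart.

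**Figure D1:**
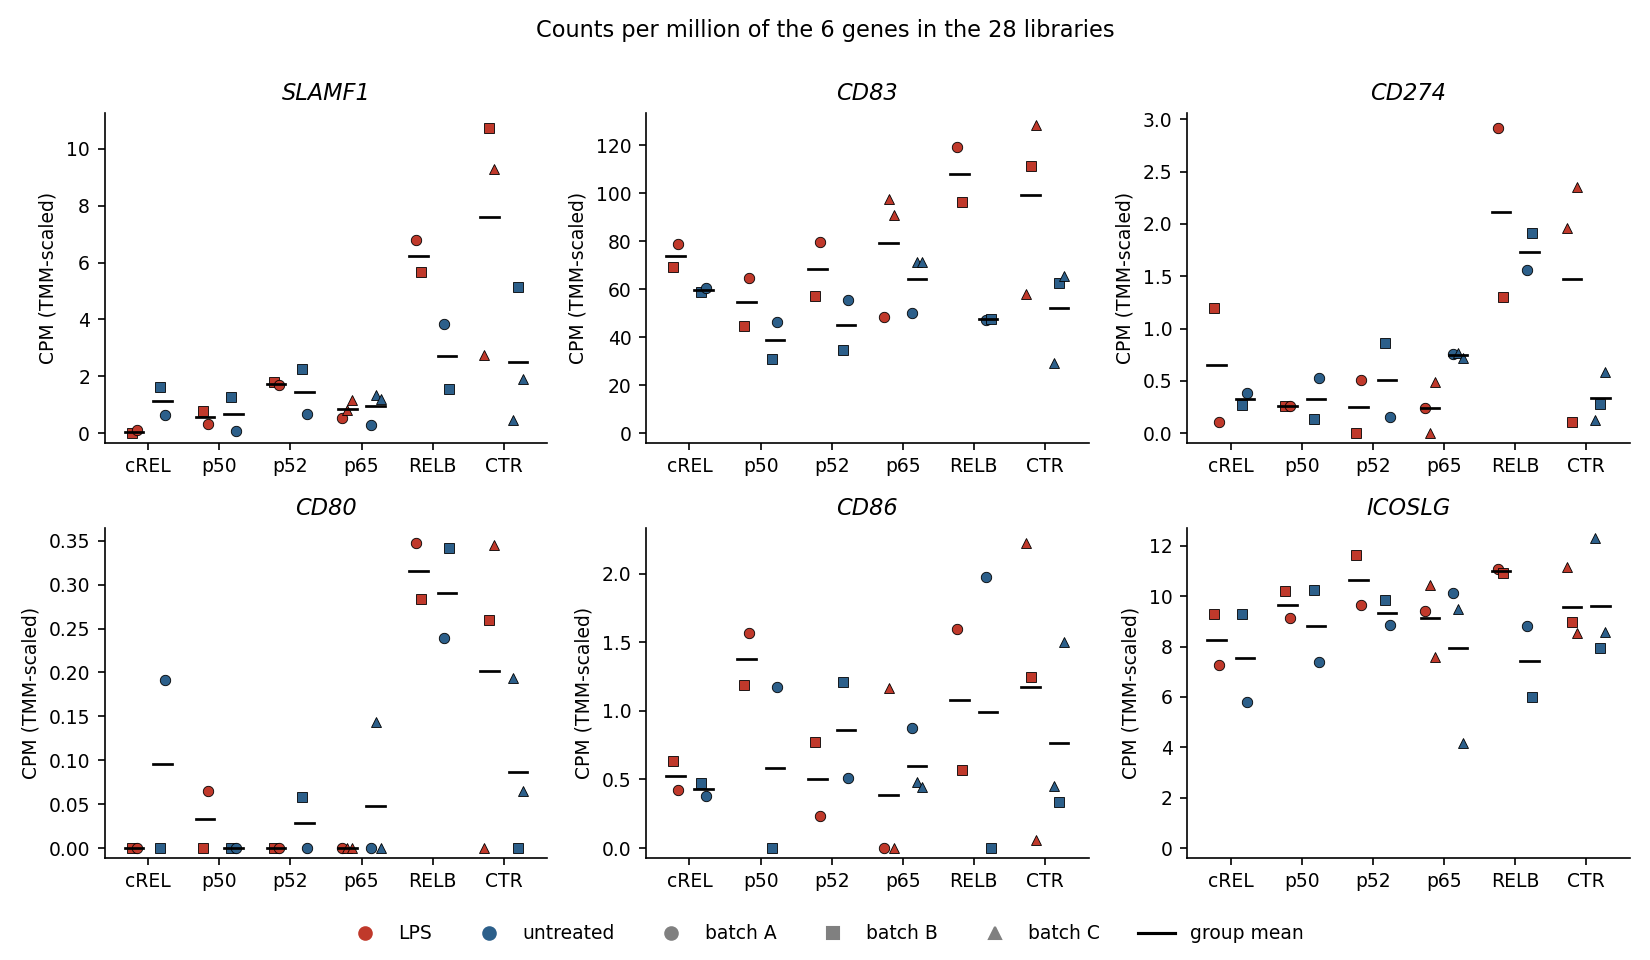
CPM (linear axis, 1 panel per gene) of SLAMF1, CD83, CD274, CD80, CD86 and ICOSLG in all 28 libraries, by genotype from cREL to CTR, with LPS left of untreated in each. Points are single libraries with the shape giving the batch, and bars are group means; SLAMF1 with LPS stood at 5.67 CPM or more in both RELB libraries and at 1.78 CPM or less in the 9 libraries of cREL, p50, p52 and p65.

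SLAMF1 was the gene that passed between genotypes. With LPS it was high in RELB knockout and CTR clones and low in every clone of the other 4 knockouts. In cREL libraries with LPS it was nearly absent, at 0 and 0.106 CPM, from 0 and 2 counts. The p50 libraries with LPS had 0.792 and 0.326 CPM, the p52 libraries 1.78 and 1.70 CPM, and the p65 libraries 0.531, 0.815 and 1.15 CPM. The RELB libraries with LPS had 6.81 and 5.67 CPM, against 2.75, 10.7 and 9.30 CPM in CTR. The lowest library of RELB or CTR, CTR replicate 1, thus lay above the highest of the other 9, p52 replicate 1, and RELB lay within the CTR range.

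Untreated, these ranges overlapped. SLAMF1 had 1.62 and 0.637 CPM in cREL, 1.26 and 0.0586 CPM in p50, 2.25 and 0.665 CPM in p52, and 0.292, 1.34 and 1.21 CPM in p65 libraries. RELB libraries had 3.83 and 1.57 CPM and CTR libraries 0.451, 5.13 and 1.89 CPM. CTR replicate 1 was therefore lower than 7 of the 9 untreated libraries of cREL, p50, p52 and p65. The CTR clones alone thus spanned 0.451 to 5.13 CPM, a wider range than the 6 untreated group means, 0.659 to 2.70 CPM.

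The change of SLAMF1 with LPS had opposite signs in different genotypes. It was lower with LPS in 2 of 2 cREL clones, with 2 counts against 34 untreated, a depth-scaled ratio of 0.0517 with a 95% counting interval of 0.00602 to 0.202. It was higher with LPS in 2 of 2 RELB clones, with 198 counts against 87 untreated, and in 3 of 3 CTR clones, with 411 counts against 127 untreated. In p50, p52 and p65 at least 1 clone went up and at least 1 went down. None of these LPS effects passed the test. The log2 fold was 1.07 ± 0.90 (SE) in RELB and 1.74 ± 0.75 in CTR, and in CTR the edgeR quasi-likelihood p adjusted over all genes was 0.846. The difference in LPS effect between cREL and CTR was −5.71 ± 1.55, with an unadjusted p of 0.00152 and an adjusted p of 1.

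With LPS, SLAMF1 fell in cREL knockouts relative to CTR. The 2 counts over the cREL libraries stood against 411 over the CTR libraries, a depth-scaled ratio of 0.00728 with a 95% counting interval of 0.000879 to 0.0265, and the edgeR adjusted p was 0.0396. SLAMF1 was the 1 called gene of the 5 tested, where 0.199% of all genes passed. The call rests on few clones: it was lost without either cREL clone, without CTR replicate 2 or 3, without either p52 clone and without p65 replicate 2 or 3, at adjusted p of 0.0534 to 0.423, and it was kept without each of the other 6 clones. It was also lost in limma voom with clone as a random effect (adjusted p = 0.133), without the batch term (0.0573) and with the authors' effective lengths entered as an offset (0.0693). Leaving out the clone labelled p65 replicate 1, whose RELA level was inside the range of other genotypes, gave an edgeR adjusted p of 0.0153. The REL level of cREL replicate 1, 1 of the 2 cREL clones behind the call, was likewise inside the range of other genotypes.

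The other knockouts were set against CTR one at a time with LPS. The log2 fold of SLAMF1 was −3.80 ± 1.05 in p50, −1.99 ± 0.96 in p52 and −2.82 ± 0.80 in p65, none of which passed, at edgeR adjusted p of 0.179, 0.508 and 0.105. DESeq2 placed SLAMF1 in p50 and p65 past the threshold, at adjusted p of 0.0147 and 0.0114. Without the clone labelled p65 replicate 1 the p65 fold was −2.41 ± 0.89 (edgeR adjusted p = 0.308), and within batch C alone it was −2.63 ± 0.81. In RELB the fold was −0.11 ± 0.97, an estimate that includes changes of either sign, and it turned to 1.26, 0.24 and 0.93 without CTR replicate 2, CTR replicate 3 and RELB replicate 2. Of the 5 tested genes, 0 passed in each of these 4 comparisons, where 0.129% (p50), 0.0698% (p52), 0.993% (p65) and 0.0483% (RELB) of all genes did.

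Averaged over the 5 knockouts, SLAMF1 fell relative to CTR with LPS. The log2 fold was −3.10 ± 0.65 (edgeR adjusted p = 0.0246), and SLAMF1 was again the 1 called gene of 5, where 0.838% of all genes passed. The call was lost without CTR replicate 2 (−1.90, adjusted p = 0.625), CTR replicate 3 (0.102), p52 replicate 1 (0.102), cREL replicate 1 (0.103) and RELB replicate 2 (0.0527). It was also lost with the effective length offset (adjusted p = 0.0507) and by limma on log2(TPM + 1) (0.0517) and on log2(TPM + 0.1) (0.158). Leaving cREL out of the average, a choice made after its values were seen, gave −2.18 (adjusted p = 0.132), and leaving RELB out in the same way gave −3.85 (adjusted p = 0.00542). Untreated, the average fold was −0.84 ± 0.62 and did not pass; it was 0.97 without CTR replicate 2. None of the 5 tested genes passed there, where 0.0322% of all genes did. The change in this average with LPS was −2.26 ± 0.88 (adjusted p = 1), with 0 of 5 and 0% of all genes called.

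**Figure D2:**
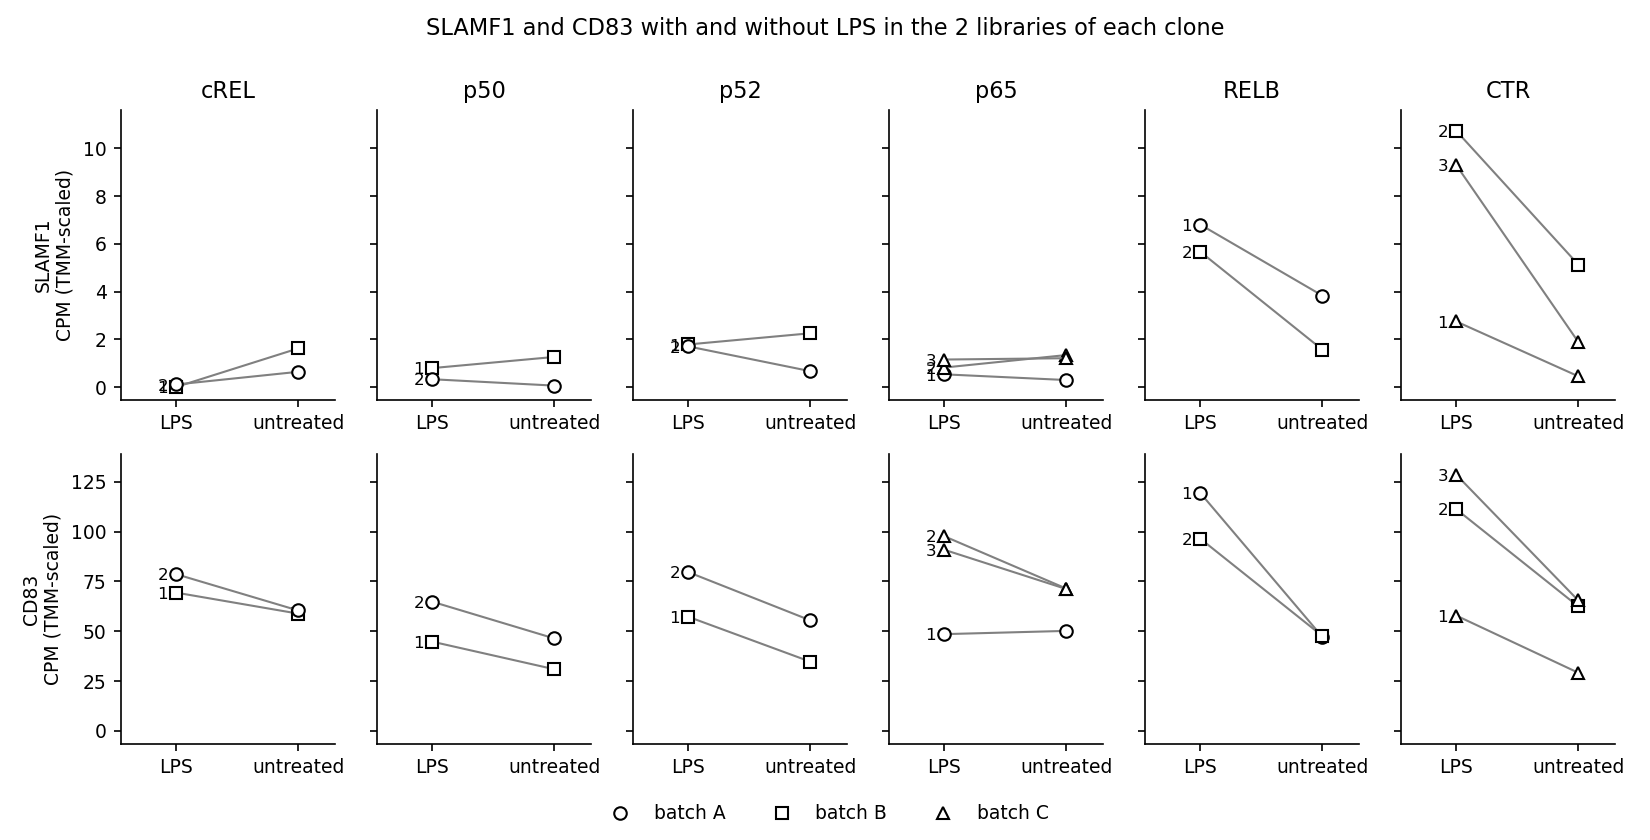
SLAMF1 (top) and CD83 (bottom) CPM in each clone with LPS (left point) and untreated (right point), joined by a line per clone, with 1 panel per genotype, the replicate number beside each line and the batch as marker shape. SLAMF1 was higher with LPS in all CTR and RELB clones and lower in both cREL clones, and CD83 was higher with LPS in 13 of 14 clones.

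RELB knockouts were then compared with the mean of the 4 other knockouts with LPS. No CTR group enters this contrast, but the CTR libraries still shaped the batch term and the spread of the model. This comparison was chosen with the nearness of RELB to CTR already known. SLAMF1 was higher in RELB, with 5.67 and 6.81 CPM against a range of 0 to 1.78 CPM and a median of 0.792 CPM over 9 libraries. The log2 fold was 3.74 ± 0.67 (edgeR adjusted p = 0.00464), and SLAMF1 was the 1 called gene of 5, where 1.76% of all genes passed. Leaving out cREL, whose counts were lowest, gave 2.76 ± 0.69 (adjusted p = 0.0485). The call held without 13 of the 14 clones in turn, the clone labelled p65 replicate 1 included (3.41, adjusted p = 0.0154), and was lost without RELB replicate 1 (2.64, adjusted p = 0.173) and by limma on log2(TPM + 0.1) (adjusted p = 0.0732).

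Ordered by group mean, SLAMF1 fell into an upper and a lower range. CTR with LPS (7.60 ± 4.26 CPM, SD, n = 3) and RELB with LPS (6.24 ± 0.803 CPM, n = 2) came first, followed by RELB untreated (2.70 CPM) and CTR untreated (2.49 CPM). The p52, cREL, p65 and p50 groups lay between 1.74 and 0.559 CPM, and cREL with LPS was last at 0.0528 CPM. Between neighbours in this order the libraries overlapped except at 2 of 11 steps, from RELB with LPS to RELB untreated and from p50 with LPS to cREL with LPS.

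CD83 was higher with LPS in 13 of 14 clones, by a log2 change of at most 1.34. With LPS it had 69.4 and 78.7 CPM in cREL clones, against 58.9 and 60.4 CPM untreated. The p50 clones had 44.8 and 64.9 CPM with LPS and 31.0 and 46.4 CPM untreated, and the p52 clones 57.3 and 79.7 CPM with LPS and 34.8 and 55.5 CPM untreated. The p65 clones had 48.6, 97.7 and 90.9 CPM with LPS and 50.2, 71.4 and 71.2 CPM untreated. Within a clone CD83 was thus higher with LPS everywhere but in the clone labelled p65 replicate 1, where the log2 change was −0.05. The RELB clones had 119.5 and 96.6 CPM with LPS, against 47.3 and 47.7 CPM untreated. The CTR clones had 57.9, 111.3 and 128.6 CPM with LPS and 29.2, 62.5 and 65.5 CPM untreated, and CTR replicate 1 was the lowest of the 3 under both conditions. The ranges with LPS and untreated did not overlap in cREL, p52 and RELB, and they overlapped in p50, p65 and CTR. Ranges of 2 clones part more easily than ranges of 3, and the share over all genes was not counted. In CTR the ranges overlapped although each of the 3 clones rose, by a log2 change of 0.83 to 0.99.

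Whether the CD83 response passed differed between the settings tried. The log2 fold with LPS was 0.31 ± 0.40 in cREL, 0.50 ± 0.40 in p50, 0.61 ± 0.40 in p52 and 0.29 ± 0.32 in p65, and it was larger in RELB, at 1.18 ± 0.40, and in CTR, at 0.92 ± 0.33. None of these passed in the model without clone (edgeR adjusted p = 0.586 in CTR). With each clone as a block, the fold in RELB was 1.18 ± 0.14 (adjusted p = 0.00053) and that in CTR 0.93 ± 0.11 (adjusted p = 0.000231), and the differences from CTR did not pass. Averaged over the 6 genotypes the fold was 0.63 ± 0.15 (adjusted p = 0.109), and 0.63 ± 0.05 with the block (adjusted p = 4.9e-06). DESeq2, which held no clone term, also called the CD83 average, at an adjusted p of 0.0095, as did limma voom with clone as a random effect, at 0.00457. In the single genotypes voom did not call CD83, at an adjusted p of 0.129 in RELB and 0.0593 in CTR. With no filter edgeR called CD83 in RELB (0.0049), in CTR (0.00576) and in the average. The p-values with no filter leave out the uncertainty of the estimated spread, so these calls carry less weight.

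In the model without clone, 0 of the 5 tested genes passed for LPS in each genotype and in their average. The share of all genes that passed was 0.0107% in cREL, 0.0161% in p50, 0.0215% in p52, 0.0268% in p65, 0.129% in RELB, 0.408% in CTR and 0.403% in the average. At an unadjusted p under 0.05, the 6 genotypes gave 4 of 30 tests (CD83 and SLAMF1 in CTR, CD83 in RELB, SLAMF1 in cREL), and the average gave 1 of 5, CD83. DESeq2 and voom called 0 in the single genotypes.

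Between genotypes no CD83 difference passed. Against CTR with LPS it was lower in p50, at a log2 fold of −0.80 ± 0.40 (edgeR adjusted p = 0.530), which turned to 0.15 without CTR replicate 2. RELB against the 4 other knockouts with LPS gave 0.69 ± 0.30 (adjusted p = 0.30). By group mean the order ran from RELB with LPS (108.0 CPM) and CTR with LPS (99.3 CPM) to p50 untreated (38.7 CPM), and the libraries of neighbouring groups overlapped at all 11 steps.

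CD274, the inhibitory ligand, had 0 to 42 counts per library, so its values carry a wide counting error. Its highest group means were those of RELB, 2.11 CPM with LPS and 1.73 CPM untreated, followed by CTR with LPS at 1.47 CPM. With LPS the counts were 42 and 23 in RELB, 19 and 2 in cREL, 4 and 4 in p50, 0 and 11 in p52 and 5, 0 and 8 in p65, against 30, 2 and 41 in CTR. Untreated they were 26 and 28 in RELB, 4 and 6 in cREL, 2 and 9 in p50, 15 and 3 in p52 and 13, 16 and 16 in p65, against 2, 5 and 9 in CTR. Both untreated RELB libraries, at 1.56 and 1.91 CPM, were above all 12 other untreated libraries, which reached 0.866 CPM.

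No comparison of CD274 passed. RELB against CTR untreated gave 54 counts against 16, a depth-scaled ratio of 5.23 with a 95% counting interval of 2.95 to 9.79, and a log2 fold of 2.91 ± 1.28 between clones (edgeR adjusted p = 0.415). RELB against the 4 other knockouts with LPS gave 2.76 ± 0.86 (adjusted p = 0.120). In p65 3 of 3 clones were lower with LPS (−1.60 ± 1.09), and in CTR 2 of 3 were higher (1.85 ± 1.10, adjusted p = 1). The difference between these LPS effects was −3.45 ± 1.55 (unadjusted p = 0.0375, adjusted p = 1), and −3.19 ± 1.81 without the clone labelled p65 replicate 1. With LPS, p65 against CTR gave −2.39 ± 1.13 (adjusted p = 0.389), and −2.76 ± 1.33 without that clone. Over all 14 clones CD274 was higher with LPS in 6 and lower in 8.

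**Figure D3:**
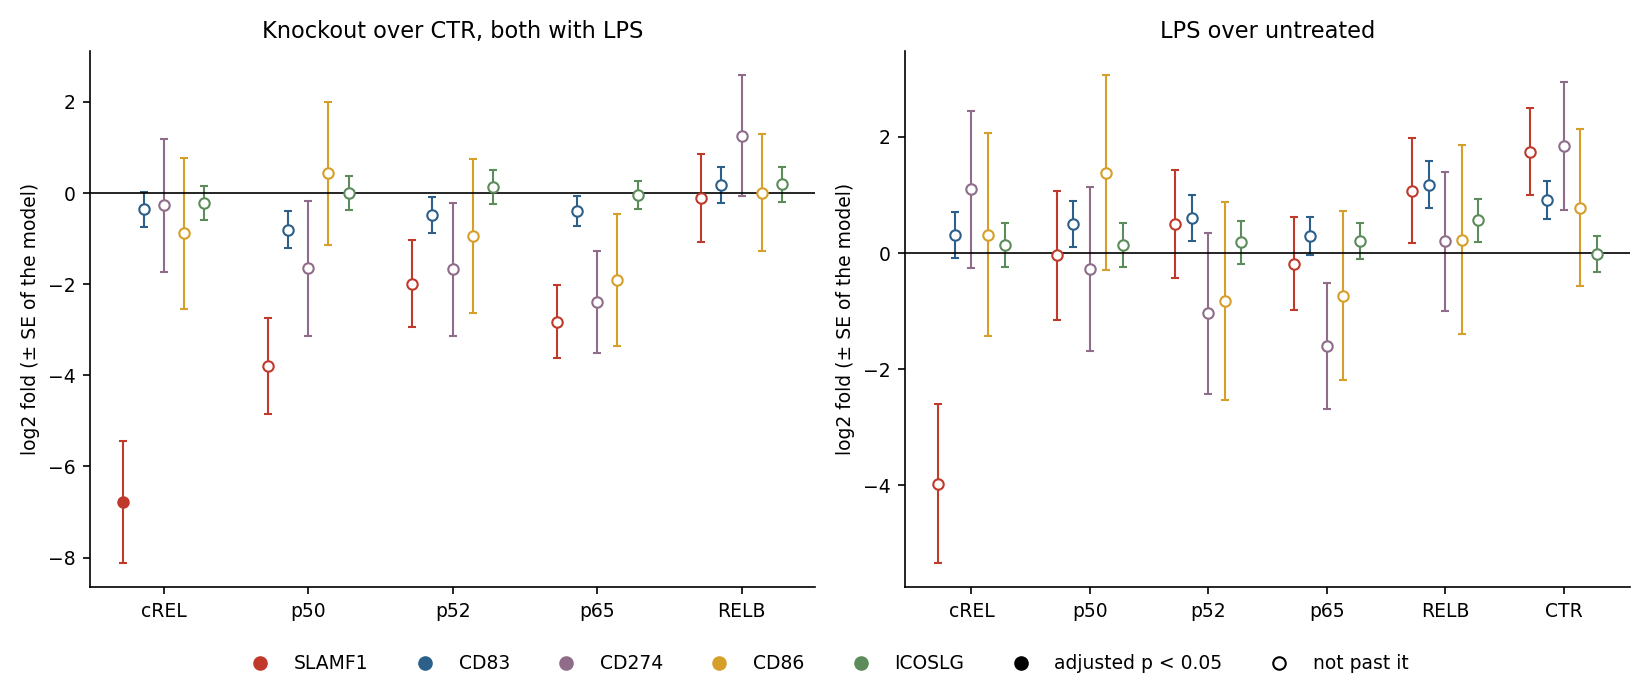
Log2 folds (y axis, bars are the standard errors of the model) of the 5 tested genes for each knockout against CTR with LPS (left) and for LPS against untreated in each genotype (right), with filled points where the adjusted p was under 0.05. The 1 filled point is SLAMF1 in cREL against CTR with LPS (−6.78 ± 1.34). This fitted value depends on edgeR's default prior count, since the cREL libraries held 2 counts.

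CD80 and CD86, the ligands of CD28, were at the edge of detection. CD80 had 42.0 estimated counts over all libraries and no more than 6 in any. With LPS it had 5 counts in each RELB library and 1 in all over the 9 libraries of the other knockouts, in p50 replicate 2, against 0, 5 and 6 in CTR. The summed counts with LPS were 10 in RELB against 11 in CTR, a depth-scaled ratio of 1.48 with a 95% counting interval of 0.562 to 3.83. With 3 counts over a group taken as its floor, the cREL, p52 and p65 sums of 0 allow at most 0.408, 0.409 and 0.261 of the CTR level. Untreated, RELB had 4 and 5 counts, cREL replicate 2 and p65 replicate 2 had 3 each, p52 replicate 1 had 1 and the other knockout libraries 0, against 3, 0 and 1 in CTR. These intervals and floors cover counting error only, since reads amplified by PCR are not independent molecules, and CD80 was tested between clones only with no filter. That setting called CD80 higher in RELB than in the mean of the 4 other knockouts with LPS (edgeR adjusted p = 0.0343). The p-values of that setting leave out the uncertainty of the estimated spread, so this call carries little weight. The fitted log2 fold of 5.04 depends on edgeR's default prior count, because 8 of the 9 libraries of the other knockouts were at 0.

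CD86 was scattered between the clones of several groups. With LPS its counts were 10 and 8 in cREL, 18 and 24 in p50, 10 and 5 in p52, 0, 20 and 0 in p65 and 23 and 10 in RELB, against 34, 24 and 1 in CTR. Untreated they were 7 and 6 in cREL, 0 and 20 in p50, 21 and 10 in p52, 15, 10 and 10 in p65 and 33 and 0 in RELB, against 7, 6 and 23 in CTR. Single groups thus ran from 0 to 20 counts, in p50 untreated and p65 with LPS, from 0 to 33 in RELB untreated and from 1 to 34 in CTR with LPS. CD86 was higher with LPS in 2 of 2 p50 and 2 of 2 cREL clones and lower in 2 of 2 p52 clones. The largest CD86 log2 fold in any comparison was 1.90 in size, with standard errors from 0.66 to 2.22, and the smallest unadjusted p was 0.206. With these standard errors a change of a few fold in CD86 was not detectable.

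ICOSLG was measured well and varied little. With LPS it had 11.1 and 10.9 CPM in RELB, 7.27 to 11.6 CPM with a median of 9.43 CPM in the 9 libraries of the other knockouts, and 11.2, 8.99 and 8.56 CPM in CTR. Untreated it had 8.83 and 6.01 CPM in RELB, 4.17 to 10.3 CPM with a median of 9.30 CPM in the other knockouts, and 12.3, 7.95 and 8.60 CPM in CTR. The ranges overlapped between genotypes, and RELB was the 1 genotype whose libraries with LPS all lay above its untreated ones, at 2 libraries on each side. That LPS effect was 0.56 ± 0.37 on the log2 scale and did not pass (edgeR adjusted p = 1), and the average over 6 genotypes was 0.20 ± 0.14. No ICOSLG fold exceeded 0.58 in size in any comparison, and the smallest unadjusted p was 0.150.

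In the comparisons not yet counted, 0 of the 5 tested genes passed by edgeR. Untreated against CTR, 0% of all genes passed in p50, p52 and cREL, 0.0537% in p65 and 0.0107% in RELB, and 1 of 25 tests had an unadjusted p under 0.05, CD274 in RELB. For the differences in LPS effect from CTR, 0% of all genes passed in p50, p52, cREL and RELB and 0.0161% in p65, and with the average of the knockouts 3 of 30 tests had an unadjusted p under 0.05. DESeq2 and voom called 0 there. Of all 18624 genes, the untreated comparisons gave 1196 in p50, 1416 in p52, 2398 in p65, 1077 in cREL and 2057 in RELB under the unadjusted cut. The differences in LPS effect gave 550 in p50, 474 in p52, 519 in p65, 560 in cREL, 398 in RELB and 613 with the average. The knockouts share the same CTR libraries, so their folds against CTR are not independent of each other.

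The partners of these genes were described from 9 lists. The receptors CD28, CTLA4, ICOS and PDCD1 were too low to test in all 4 cases; ICOS was at 0 in all libraries, and CTLA4 and PDCD1 averaged 0.310 and 0.111 TPM. Of 8 genes for PD-L1 stability and interferon input, such as IFNGR1 (131.2 TPM) and IFNGR2 (101.5 TPM), which form the interferon gamma receptor, all 8 were tested. None of the 8 passed in RELB against the 4 other knockouts with LPS, where their median log2 fold was 0.17 against 0.00 over all genes. In the same comparison, where 1.76% of all genes were called, the other B7 ligands had 1 of 4 tested genes higher (median 0.47), the tumour necrosis factor family and other costimulatory genes 1 of 9 (0.09), and the SLAM family 1 of 6 (1.60). The B7 ligand called, PDCD1LG2, passed the filter on low counts only through RELB libraries. The 5 tested costimulatory genes themselves had a median of 0.83. Among the tested SLAM genes 6 of 6 had a positive fold. No gene of the 9 lists was called lower here, and the medians describe these lists without a test.

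PDCD1LG2 (PD-L2), a second ligand of PD-1, was higher in RELB. It had 38 and 14 counts in RELB libraries with LPS, against 15 counts in all over the 9 libraries of the other knockouts, 10 of them in p52 replicate 2. The CTR libraries with LPS held 14, 0 and 3 counts, so RELB replicate 2 was within their range. Outside RELB and CTR no library held more than 10 counts. PDCD1LG2 thus passed the filter on low counts only through its RELB libraries, and the same values chose and tested it. The fitted log2 fold was 6.02 ± 1.20 (edgeR adjusted p = 0.0136, with none given by DESeq2). This fold depends on edgeR's default prior count because 6 of the 9 libraries were at 0. The call was lost without cREL replicate 2, RELB replicate 1 or RELB replicate 2, with a highest adjusted p of 0.157, and with no batch term (0.0950).

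TNFRSF14 (HVEM), which binds the receptor BTLA and the cytokine LIGHT, was higher in RELB as well. It had 263.7 and 147.2 CPM in RELB libraries with LPS, against 38.2 to 134.0 CPM with a median of 83.04 CPM in the other knockouts, and 52.1 to 82.3 CPM in CTR. Both RELB libraries lay above all others. Untreated RELB libraries had 186.6 and 232.7 CPM. The log2 fold was 1.11 ± 0.24 (edgeR adjusted p = 0.0156), and 0.69 without RELB replicate 1 (adjusted p = 0.499). TNFRSF14 did not pass by limma on log2(TPM + 1) or log2(TPM + 0.1) either, at adjusted p of 0.0621 and 0.0765.

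SLAMF7, a SLAM family receptor known in natural killer and plasma cells, followed SLAMF1 in part. It had 8.83 and 3.64 CPM in RELB libraries with LPS, against 0.261 to 3.70 CPM in the other knockouts, and 7.86, 8.56 and 3.05 CPM in CTR. The RELB range just overlapped that of the other knockouts. The log2 fold was 2.66 ± 0.60 (edgeR adjusted p = 0.0235), lost without RELB replicate 1 (adjusted p = 0.603), the clone labelled p65 replicate 1 (0.0773), cREL replicate 2 or either p52 clone, and by limma on log2(TPM + 0.1) (0.0667). In p65 against CTR with LPS SLAMF7 fell by 3.22 ± 0.75 on the log2 scale (adjusted p = 0.0407), a call lost without 9 of the 14 clones, among them the clone labelled p65 replicate 1 (−2.66, adjusted p = 0.202), the other 2 p65 clones and CTR replicates 1 and 2. The remaining clones whose absence ended that call were both p52 and both cREL clones, and within batch C alone the SLAMF7 fold was −2.82 (adjusted p = 0.337). Other well expressed genes of these lists, VSIR (94.5 TPM), CD276 (26.8 TPM), LGALS9 (190.7 TPM), CD58 (103.4 TPM), SLAMF8 (64.7 TPM) and CD244 (30.9 TPM), passed in no comparison.

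**Figure D4:**
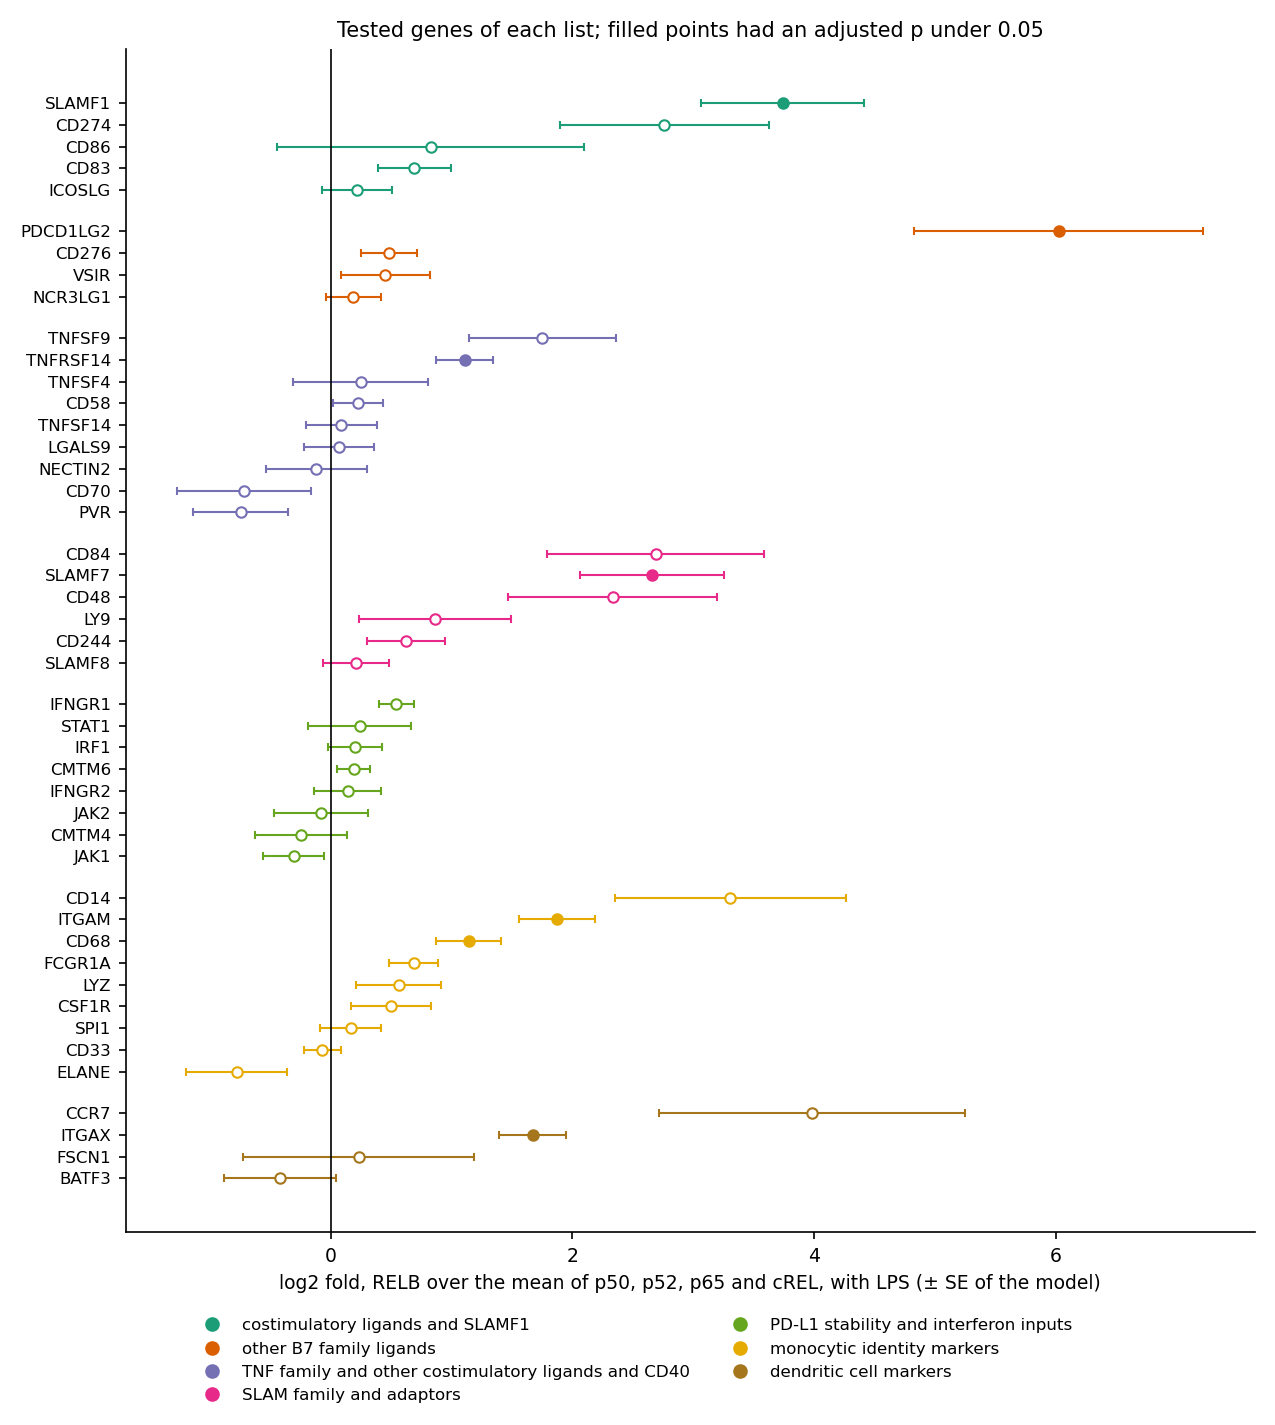
Log2 folds (x axis, bars are the standard errors of the model) of RELB against the mean of the 4 other knockouts with LPS for the tested genes of 7 lists, coloured by list, with filled points where the adjusted p was under 0.05. The filled points are SLAMF1 (3.74), PDCD1LG2 (6.02), TNFRSF14 (1.11), SLAMF7 (2.66), ITGAM (1.87), CD68 (1.14) and ITGAX (1.67), all above 0.

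Of the myeloid markers, ITGAX, ITGAM and CD68 were higher in RELB than in the mean of the 4 other knockouts with LPS. ITGAX (CD11c), an integrin of dendritic cells and macrophages, had 46.8 and 37.6 CPM in RELB libraries with LPS, against 7.22 to 23.5 CPM in the other knockouts and 5.85 to 18.5 CPM in CTR. It was as high in untreated RELB libraries, at 48.1 and 36.0 CPM. ITGAX rose by 1.67 ± 0.28 on the log2 scale (edgeR adjusted p = 0.00212). ITGAM (CD11b) gave 1.87 ± 0.32 (adjusted p = 0.00236) and the lysosomal protein CD68 1.14 ± 0.27 (adjusted p = 0.0338). ITGAX and ITGAM were no longer called without RELB replicate 1 (adjusted p of 0.188 and 0.153), and CD68 was no longer called without any 1 of 9 clones, both RELB, both p50 and both p52 clones, p65 replicates 2 and 3 and cREL replicate 2. CD68 was not called either with no batch term (adjusted p = 0.340), with the effective length offset (0.0618) or by limma on log2(TPM + 1) (0.0621) and log2(TPM + 0.1) (0.0765), and ITGAM was not called with no batch term (0.0523).

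Of the 9 monocytic markers tested, 2 were thus called higher in RELB (median log2 fold 0.56), and of the 4 dendritic cell markers tested, 1 was (0.95), where 1.76% of all genes were called in either direction. The summed monocytic list stood at 2919 to 3469 TPM in RELB with LPS, against 3171 to 5185 TPM in the other knockouts and 1625 to 4764 TPM in CTR. This sum was not higher in RELB, but it is mostly ELANE and LYZ (means of 2205 and 1047 TPM over all libraries). It therefore says little of the other markers in the list. The summed dendritic list stood at 34.3 to 37.6 TPM in RELB with LPS, against 12.8 to 27.3 TPM in the other knockouts and 16.8 to 35.6 TPM in CTR. That sum is mostly BATF3 and ITGAX (means of 13.7 and 9.61 TPM over all libraries). It therefore repeats the ITGAX result in part and says little of the other dendritic genes. The dendritic genes CD1C and CD1A were at 0 in 28 and 27 of 28 libraries, and 0 of 6 T and NK and 0 of 5 B cell markers passed. Summed T and NK markers gave 408.1 to 415.4 TPM in RELB and 336.4 to 586.4 TPM in the other knockouts, and B cell markers 11.5 to 13.9 TPM in RELB and 10.9 to 19.0 TPM in the other knockouts. The part of the marker levels in the SLAMF1 result was not tested. In the mean of the 5 knockouts against CTR with LPS, TRAC, a T cell receptor constant gene, fell by 1.36 ± 0.30 on the log2 scale (edgeR adjusted p = 0.0334), with 0.990 to 3.91 CPM over the knockout libraries against 3.73 to 4.08 CPM in CTR. This call was lost without 10 of the 14 clones, among them the clone labelled p65 replicate 1 (adjusted p = 0.0570) and each CTR clone; the other 6 were both p50, both p52 and both cREL clones. The TRAC call was also lost with voom and a random clone effect (0.0678), with no filter (0.131), with the effective length offset (0.0622), by limma on log2(TPM + 0.1) (0.0513) and without cREL in the average (0.0606).

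The genes most like each of the 6 across the 28 libraries were found by Pearson's r on log2 CPM among 9980 genes of at least 5 CPM. SLAMF1 was most like LACTB (r = 0.81) and the ATP-gated channel P2RX7 (0.79), and within the 14 LPS libraries these reached 0.89 and 0.90. CD83 was most like CLK3 (0.80), TRIM16 (0.77) and the urokinase gene PLAU (0.76). ICOSLG was most like MPG (0.80), RHOG (0.80) and RHOC (0.79), but within the LPS libraries at 0.45 to 0.51. CD274 and CD86 reached no more than 0.65 (CYBB) and 0.61 (SMPDL3A). Between the tested costimulatory genes r ran from −0.14 to 0.39, with 0.39 for CD83 and SLAMF1. These values describe libraries that share clones, treatment and depth, and the highest of 9980 correlations is high by selection.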

How the data were processed

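Per the labels, polyadenylated RNA was copied to cDNA, amplified by PCR and sequenced from paired ends. The authors deposited 3 gene tables: estimated counts not scaled to a common total, of which 41.0% to 47.5% of the nonzero values per library were whole, TPM values, and effective lengths in bases. Salmon 0.11.3, FastQC 0.11.7 and GRCh38 are named in the submitters' processing notes; for the annotation release and the settings, the answer is "not given in the sources used here".

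Estimated counts were rounded and tested with edgeR 4.0.16 (R 4.3.3) after filterByExpr (minimum count 10, minimum total 15) and TMM scaling. The robust quasi-likelihood model held 12 groups plus batch and kept 14 degrees of freedom, and variation between clones was 31.7% (biological coefficient). P-values of the 26 comparisons were adjusted by Benjamini-Hochberg over all 18624 genes, with a threshold of 0.05. They measure the spread between the libraries of a group, pooled over all groups. The model held no clone term and treated a clone's LPS and untreated libraries as independent. The 14 degrees of freedom thus exceed what the clones alone give. P-values between genotypes may be too small, and those of LPS effects leave out the pairing. The members and lists were chosen with earlier results of these data known. The rule for named genes took the 6 members and, of each list, up to 4 genes that passed and up to 2 others of highest mean TPM; defining markers at or near 0 are named besides. Some results for single genes are left out of the text. Log2 CPM used a prior count of 2, while the fitted edgeR folds kept that tool's default prior count. Counting intervals are exact at 95%, and floors are 3 counts.

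A clone's untreated and LPS libraries share genotype and replicate number. They were read as pairs on these labels. Their deviations from the group means correlated at 0.203 to 0.441. In genotypes with 2 clones these deviations mirror each other, so both clones give the same value. Batch was not removed, and the clones of p50, p52, cREL and RELB were in different batches. The correlation therefore cannot tell a clone effect from batch. Alternatives were DESeq2 1.42.0, RLE factors, no filter, no batch term, an effective length offset, the clone block (8 degrees of freedom), limma 3.58.1 voom with a random clone effect (correlation 0.355), limma on log2 TPM, batch C alone and each clone left out. On simulated counts for cREL against CTR with LPS, 3 of 50 genes lowered 2-fold, 36 of 50 lowered 4-fold and 49 of 50 lowered 8-fold were recovered. Over 16845 genes, 5 unchanged genes were called. The simulation gave all genes the same spread, held no batch or clone effect and lowered no genes of low counts. It checks the code and does not give the power for the 5 tested genes.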

Additional observations from a re-analysis of the deposited data

Results flagged for a closer look

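SLAMF1 was lower with LPS in every cREL clone and higher in every RELB and CTR clone. On log2 CPM with a prior count of 2, the mean change in cREL minus that in CTR was −4.69, and that in cREL minus that in RELB was −4.12. Tested in the edgeR model, the difference between cREL and CTR was −5.71 ± 1.55 with an adjusted p of 1, and that between cREL and RELB was not tested.

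CD86, at a few counts per library, was lower with LPS in every p52 clone and higher in every p50 and cREL clone. Its change in p52 minus that in p50 was −2.65, and its change in cREL minus that in p52 was 0.95. Neither difference was tested. With 2 or 3 clones in each genotype, no group was large enough to look for a single clone that stood apart.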

How the results depend on the processing

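The 37 log2 folds given were recomputed in 852 combinations with other settings: 751 kept direction and side of the threshold, 77 no longer passed, 19 newly passed and 5 changed sign. The sign changes were SLAMF1 in RELB against CTR with LPS (1.26 without CTR replicate 2, 0.24 without CTR replicate 3, 0.93 without RELB replicate 2; −1.02 to 1.26 over all clones left out), SLAMF1 in the 5 knockouts untreated (0.97 without CTR replicate 2; −1.48 to 0.97 over all) and CD83 in p50 against CTR with LPS (0.15 without CTR replicate 2; −1.25 to 0.15 over all). Without CTR replicate 2, no CTR clone shares a batch with the p50, p52, cREL and RELB clones. Values without that clone do not separate clone from batch. Of the 23 comparisons with 0 costimulatory genes called, 16 gave 0 in every setting. With no filter, 1 was called for LPS in CTR, cREL, RELB and the average of 6 genotypes, for p50 and p65 against CTR with LPS and for the difference of cREL from CTR, and 4 in RELB against the other knockouts (CD274, CD80, CD83 and SLAMF1). The replicate block called 1, CD83, for LPS in CTR, in RELB and in the average, and changed no other call of an LPS effect or of a difference in LPS effect, the comparisons it can give. The no-filter calls come from p-values that leave out the uncertainty of the estimated spread. DESeq2 called 1 in p50 and p65 with LPS and in the average. Voom with clone as a random effect called 1 in the average and 0 in cREL against CTR with LPS. That comparison also gave 0 without the batch term and with the effective length offset. The mean of the knockouts against CTR with LPS gave 0 with that offset, on log2(TPM + 1), on log2(TPM + 0.1) and without cREL. RELB against the other knockouts gave 0 on log2(TPM + 0.1). Leaving out each clone gave 0 to 1 in cREL against CTR with LPS, in the mean of the knockouts and in the LPS average, and 0 to 2 in RELB against the other knockouts. The number of genes called in all moved as well, for cREL against CTR with LPS between 13 (no batch term) and 364 (no filter) around 37. Causes were not tested. Libraries held 0 to 42 counts of CD80, CD86 and CD274, so counting error is large for these genes. CD86 and CD274 also scattered between the clones of a group, with CD274 at 30, 2 and 41 counts in CTR with LPS.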
